A study of Mus musculus with 6 samples.

Results

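The PDGF family was taken as 6 genes, the ligand genes Pdgfa, Pdgfb, Pdgfc and Pdgfd and the receptor genes Pdgfra and Pdgfrb, out of 21755 protein-coding gene IDs of the GENCODE M21 mouse annotation on chromosomes 1 to 19 and X. They were examined for H3K4me1, the single methylation of lysine at position 4 of histone H3 that marks enhancers and the flanks of active promoters. A peak was counted for a gene if it overlapped the gene body or its 5 kb flanks, or if it lay up to 100 kb away and its midpoint had its nearest protein-coding start site in that gene. Under this rule the family held 9, 10 and 12 peaks in replicates 1, 2 and 3 (10.3 ± 1.53, SD, n = 3), out of lists of 16788, 12969 and 13998 peaks.

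The profiles came from CUT&Tag, in which an antibody to a histone mark tethers a transposase that cuts and tags the DNA beside it. Whisker pads of mice at e12, that is embryonic day 12, of strain B6/J2 and without any transgene or treatment in the labels, were digested whole to single cells, and 3 H3K4me1 libraries (whisker pads 1, 2 and 3) were compared with one another. The 3 IgG libraries of the same pads were not analysed here, so no control background can be given for any peak. Titles name all 6 samples as whisker pad, but the source field of 4 of them, H3K4me1 replicates 2 and 3 included, names adult kidney.

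Platelet-derived growth factors act as dimers that bring receptor tyrosine kinases together at the cell surface. PDGF-A and PDGF-C act mainly through PDGFRα, a receptor of mesenchyme that neural crest cells of the developing face need, and PDGF-B and PDGF-D act mainly through PDGFRβ, which is best known from pericytes and other mural cells of vessels. H3K4me1 shows where regulatory DNA may be in use and does not measure transcription.

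The receptor genes were the only members with a peak in the gene body or its flanks in all 3 replicates, and they differed in shape. Pdgfrb had a single block of more than 20 kb over its start in each pad, among the strongest of each peak list. Pdgfra instead had 2 peaks, shorter than that block, on either side of an unmarked start. The ligand genes Pdgfa and Pdgfc had several peaks, most of which changed from pad to pad. At Pdgfa 2 regions outside the body and its flanks were found in all 3 replicates, its strongest peak among them. Pdgfb and Pdgfd had 1 weak peak in 1 pad each.

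Each peak list was made separately, as the blocks of highest signal, and its values were not scaled to sequencing depth. The lowest total signal of a listed peak was 14265 in replicate 1, 24247 in replicate 2 and 19337 in replicate 3, so the same block could be listed in one replicate and fall under the limit in another. Total signal is the read pileup summed over the bases of a peak, and strength is therefore given as a percentile, the percent of peaks of the same list with an equal or lower total. Sequencing depth is not given in the lists, and a gene without a peak is one without a block above these limits. Whether the 3 pads came from separate embryos is not stated, so the spread between replicates may be technical in part. In a bulk sample, a strong mark in few cells and a weak mark in many cells cannot be told apart.

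Marker genes were set beside the tissue name, and were counted if they had a peak in the gene body or its 5 kb flanks. Of 10 markers of facial mesenchyme, 10, 9 and 10 had a peak in replicates 1, 2 and 3, with a median of 48.5%, 40.6% and 50.9% of each gene's body and flanks under peaks. Of 11 markers of adult kidney, 2, 2 and 1 had one, and of 9 markers of blood 1, 1 and 1. Over all protein-coding genes the share with such a peak was 24.9%, 22.6% and 19.6% in replicates 1, 2 and 3. The mesenchyme markers were thus far above that share in replicates 2 and 3 too, whose source field names kidney, and the kidney markers, at 18.2%, 18.2% and 9.09%, were near or below it.

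In each replicate 4 of the 6 members had a peak in the body or its flanks. This is a larger share than that of all genes given above. The family's count was the same in each pad, but the genes were not: Pdgfa and Pdgfc were listed in replicate 1, Pdgfa and Pdgfb in replicate 2, and Pdgfc and Pdgfd in replicate 3, beside both receptors each time. A peak in all 3 replicates was found at 2 members, Pdgfra and Pdgfrb, and at 15.5% of all genes. No member was without a peak in every replicate, which was the case for 71.2% of all genes.

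Long genes collect more peaks, and the members range from 19.1 kb for Pdgfb to 210.3 kb for Pdgfd. Pdgfa, Pdgfb, Pdgfra and Pdgfrb fall among the genes of 10 to 50 kb, of which 22.1%, 19.8% and 15.6% had a peak in replicates 1, 2 and 3. Pdgfc falls among those of 50 to 200 kb, of which 39.8%, 35.3% and 37.9% had one. Pdgfd is in the class of 200 kb and longer, in which 63.2%, 58.7% and 66.9% of genes had one, so that most genes of its length had a peak in each replicate, whereas Pdgfd had 1 in replicate 3 alone.

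A peak within 1 kb of an annotated start site was present for 3, 4 and 3 members (3.33 ± 0.577, SD, n = 3), against 11.7%, 11.5% and 8.05% of all genes in replicates 1, 2 and 3. Pdgfra and Pdgfrb had one in all 3 replicates, as did 5.53% of all genes. For Pdgfra this was the peak before the starts in replicates 1 and 2. In replicate 3 it was the peak after them, at percentile 13.0. With the first start site of each member alone, the mean was 3 members with an SD of 1. A peak that covered a start site itself was present for 2, 3 and 2 members: Pdgfrb in every replicate, Pdgfa in replicates 1 and 2, Pdgfb in replicate 2 and Pdgfc in replicate 3. When the base of highest pileup was counted instead of the peak's edge, the mean was 0.667 members in place of 3.33.

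**Figure D1:**
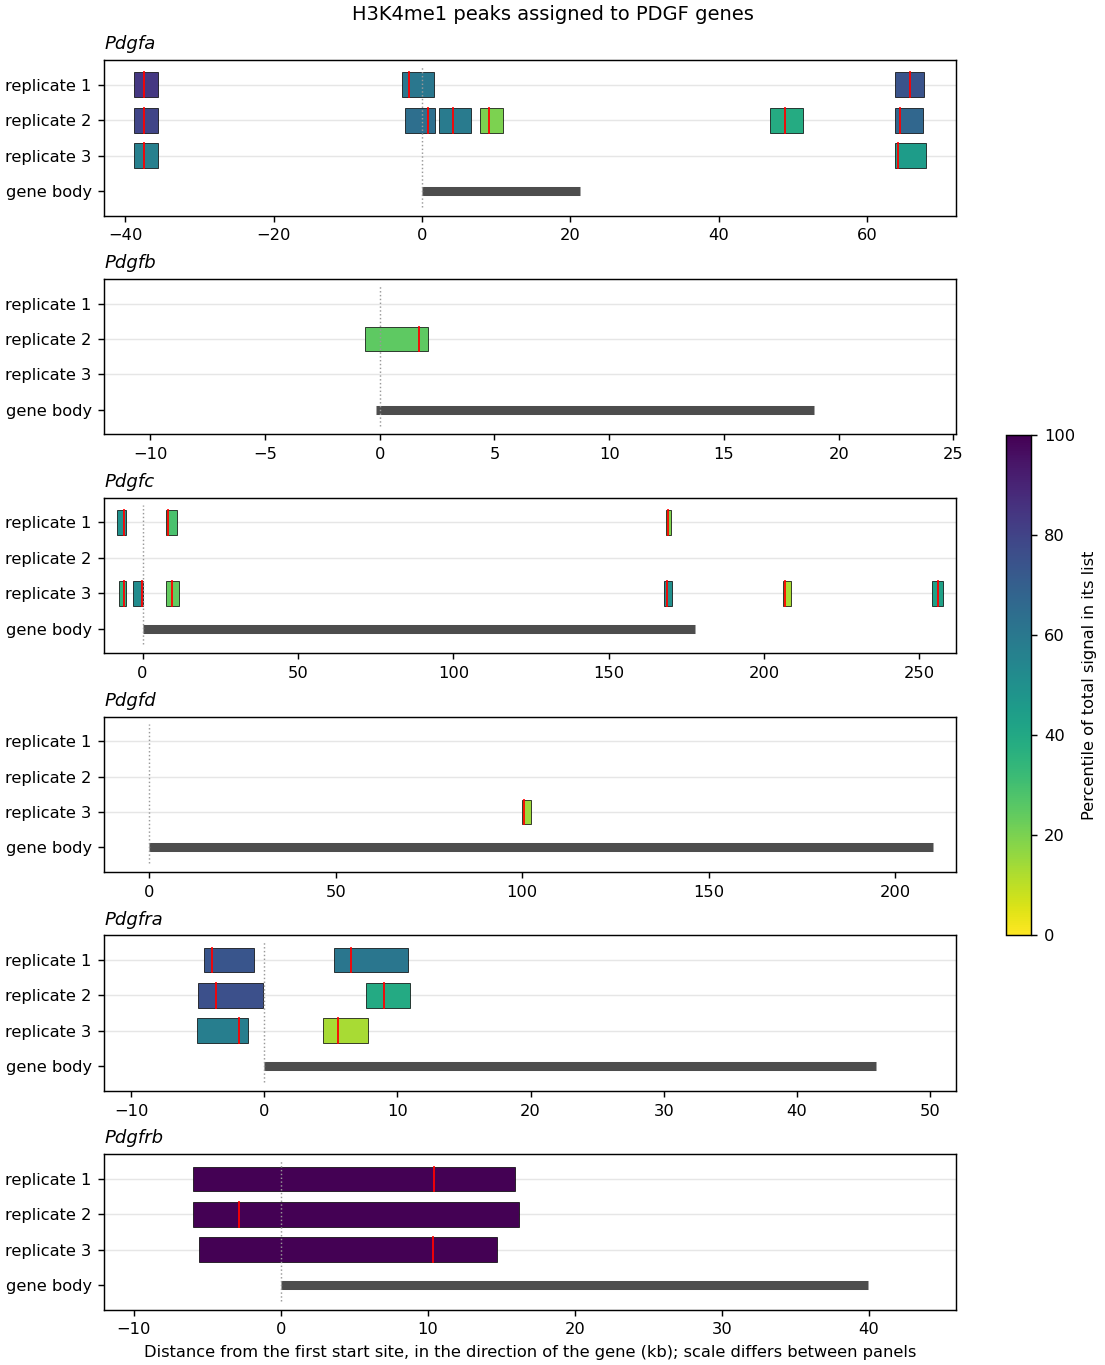
Peaks at the 6 PDGF genes in the 3 replicates, with distance in kb from each gene's first start site on the x axis, 1 row per replicate, colour for the percentile of total signal and a red tick at the highest pileup. Pdgfrb has 1 long block in each row, Pdgfra has 2 shorter ones on either side of its start, and the rows of the ligand genes differ.

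Pdgfa encodes the PDGF-A chain, made by many epithelia and received by PDGFRα on the mesenchyme beneath them. The gene (ENSMUSG00000025856.15) lies on the minus strand of chr5:138976014-138997370 (mm10) with 4 start sites, and held 3, 6 and 2 peaks in replicates 1, 2 and 3. Of these, 1, 3 and 0 lay in the body or its flanks, and the rest were up to 100 kb away. Of its 6 regions 2 were found in every pad, and both lay outside the body and its flanks.

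The strongest Pdgfa peak in each replicate lay 37.4, 37.5 and 37.5 kb upstream of the first start by its highest pileup, inside the body of Prkar1b, which encodes a regulatory subunit of protein kinase A. The gap between the bodies of Pdgfa and Prkar1b is 19.9 kb. This block was 3.23 kb long in replicate 1, 3.27 kb in replicate 2 and 3.26 kb in replicate 3, and 97.6% of the merged region was common to the 3 peaks. Its total signal stood at percentile 83.7 in replicate 1, 79.6 in replicate 2 and 56.7 in replicate 3 (73.3 ± 14.6, SD). Its highest pileup was 77, 103 and 57, or percentile 88.5, 90.8 and 79.6 of the peak maxima of each list. The bases of highest pileup lay within 117 bp of one another, so its position was kept far more closely than its rank. Nearest start sites assigned it to Pdgfa, and which gene it acts on was not measured.

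The stretch that holds the 3 highest pileups, with 30 bases on either side, is printed because it was the sharpest point shared by all pads at a ligand gene. It is chr5:139034762-139034938 on the plus strand of GRCm38 (mm10), lies wholly under the peak in each replicate, and its capitals mark the 1 match to an E-box, the site of basic helix-loop-helix factors, searched as CAGATG or CATATG or CAGCTG on either strand.
Pdgfa distal block: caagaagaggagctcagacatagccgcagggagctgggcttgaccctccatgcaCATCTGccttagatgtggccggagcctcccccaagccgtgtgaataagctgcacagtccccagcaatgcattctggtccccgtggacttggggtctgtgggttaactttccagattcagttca

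A second distal region was listed in all 3 replicates on the other side of the gene, 63.8 kb downstream of the first start at its near edge and 67.8 kb at its far edge on average, at percentiles 74.6, 67.1 and 45.3. It lies in no protein-coding gene. Its highest pileups spread over 1553 bp, so unlike the block in Prkar1b it had no common summit.

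Over the Pdgfa start sites themselves a peak was listed in replicate 1, from 2.68 kb before to 1.64 kb after the first start, at percentile 60.4. Replicate 2 had it from 2.24 kb before to 1.82 kb after, at percentile 63.9, and a further peak at percentile 58.8 reached from 2.35 to 6.59 kb after the first start and covered another of the 4 starts. Replicate 3 had none, and its nearest peak ended 35.5 kb from the first start. The share of the Pdgfa body and flanks under peaks was 13.8%, 36.1% and 0%, a mean of 16.6% with an SD of 18.2 that is larger than the mean, and 6.89% without replicate 2.

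A promoter at an inner start of Pdgfa, from the RefSeq promoter set on GRCm38 (250 bases before to 50 after a start), is printed for its base composition. It runs on the minus strand at chr5:138994895-138995194, has 73.3% G or C with 37 CpG dinucleotides, holds none of the searched motifs, and was under a peak over 43.7% of its bases in replicate 2 and over 0% in replicates 1 and 3. A further RefSeq promoter of Pdgfa, chr5:138994232-138994531, was under a peak over 100% of its bases in replicate 2 and 0% in the others.
Pdgfa inner promoter: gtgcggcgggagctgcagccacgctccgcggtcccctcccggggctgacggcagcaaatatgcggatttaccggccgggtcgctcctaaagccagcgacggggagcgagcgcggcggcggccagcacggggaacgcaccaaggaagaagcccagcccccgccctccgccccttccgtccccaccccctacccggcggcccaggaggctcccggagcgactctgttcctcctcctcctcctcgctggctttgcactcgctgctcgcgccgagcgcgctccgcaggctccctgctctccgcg

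Pdgfb encodes the PDGF-B chain, the ligand by which endothelium recruits pericytes. The gene (ENSMUSG00000000489.7, minus strand of chr15:79995874-80014977) had 1 peak in replicate 2 and 0 in replicates 1 and 3. The peak, chr15:80012705-80015469, covered the start site and reached 2.10 kb into the gene, with its highest pileup 1.73 kb after the start, in an intron. Its total signal of 31290 was 1.29 times the lowest total of that list, at percentile 24.8. In replicates 1 and 3 the peak nearest to the start was 62.5 and 61.9 kb away. Covered share was 0%, 9.50% and 0%, so that every value for Pdgfb rests on replicate 2.

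Among genes near Pdgfb, Cbx7, a Polycomb protein gene, had a peak in each replicate, and Rpl3, a ribosomal protein gene, had 2, 1 and 1. Syngr1, a synaptic vesicle gene, had 1, 0 and 0, and Apobec3, an antiviral cytidine deaminase gene, had 0 in all 3. The stretch around Pdgfb was therefore not without mark in replicates 1 and 3.

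Pdgfc encodes the PDGF-C chain, which has to be cleaved before it binds PDGFRα and which takes part in closure of the palate. The gene (ENSMUSG00000028019.9) spans 177.6 kb on the plus strand of chr3:81036416-81214040, and held 3, 0 and 6 peaks in replicates 1, 2 and 3. Replicate 2 stood apart, since its nearest peak to the start was 1516 kb away. Its covered share was 2.78%, 0% and 5.39%.

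Replicates 1 and 3 shared 3 regions at Pdgfc, of which 2 are described. The first lay upstream with its highest pileup 5.94 kb before the start in replicate 1 and 6.07 kb before it in replicate 3, at percentiles 49.5 and 35.2, and these points were within 137 bp of each other. The next lay in an intron about 8.08 and 9.45 kb after the start, at percentiles 28.8 and 23.8.

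The highest percentile of a Pdgfc peak was 49.5 in replicate 1 and 51.7 in replicate 3. When peaks were ranked by highest pileup, the highest percentile was 77.2 on average. It was then reached by other peaks than those at 49.5 and 51.7.

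Only replicate 3 had a peak over the Pdgfc start, from 2.95 kb before to 0.069 kb after it, at percentile 51.7 and with its highest pileup 0.317 kb before the start. It was the strongest Pdgfc peak of that replicate by total signal, and 2 further peaks 206.7 and 256.1 kb after the start were also listed in replicate 3 alone. No peak at the Pdgfc start was listed in replicates 1 and 2.

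The summit stretch of the upstream region and the promoter of Pdgfc are printed because the former was shared closely by replicates 1 and 3 and the latter was marked in replicate 3 alone. They are chr3:81030314-81030510 and, from the RefSeq promoter set, chr3:81036166-81036465, both on the plus strand of GRCm38. The summit stretch lies wholly under the peaks of replicates 1 and 3 and the promoter wholly under that of replicate 3. Capitals mark matches to GGAATG, the TEAD motif, or its complement, and 1 E-box match in the upstream stretch.
Pdgfc upstream summit: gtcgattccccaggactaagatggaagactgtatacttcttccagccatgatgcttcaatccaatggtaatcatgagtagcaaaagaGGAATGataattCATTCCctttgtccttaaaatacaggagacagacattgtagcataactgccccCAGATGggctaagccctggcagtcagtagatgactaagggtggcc
Pdgfc promoter: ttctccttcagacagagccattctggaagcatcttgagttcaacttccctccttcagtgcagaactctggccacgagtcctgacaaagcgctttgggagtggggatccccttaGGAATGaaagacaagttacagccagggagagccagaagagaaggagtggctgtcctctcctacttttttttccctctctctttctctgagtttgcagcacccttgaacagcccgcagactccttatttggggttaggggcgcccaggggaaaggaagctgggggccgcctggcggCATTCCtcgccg

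Pdgfd encodes the PDGF-D chain, also activated by cleavage and bound by PDGFRβ. The gene (ENSMUSG00000032006.15) spans 210.3 kb on the plus strand of chr9:6168584-6378850 with 3 start sites, and had 0, 0 and 1 peaks. The peak, chr9:6268512-6270826, lay in an intron 100.5 kb after the first start, at percentile 14.7 and 1.15 times the lowest total of the list of replicate 3. It overlapped Ddi1, a protein-coding gene on the other strand inside that intron, and the start site nearest to it was that of Ddi1. It was counted for Pdgfd only because it overlaps the gene body. The nearest peak to the Pdgfd start was 1615 kb away in replicate 1 and 989.9 kb away in replicate 2, and covered share was 0%, 0% and 1.05%. In replicate 3 it was the Ddi1 peak, whose near edge lay 99.9 kb from the start.

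Pdgfra encodes PDGFRα, the receptor for PDGF-A and PDGF-C in mesenchyme. The gene (ENSMUSG00000029231.15) spans 45.9 kb on the plus strand of chr5:75152292-75198215, with 4 start sites of which the last lies 3.61 kb after the first. It held 2 peaks in each replicate, 1 before and 1 after the starts, and none at a distance. Its nearest protein-coding neighbour upstream, the homeobox gene Gsx2, lies 74.4 kb away and had no peak in any replicate.

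The upstream peak of Pdgfra spanned 3.78 kb in replicate 1, 4.93 kb in replicate 2 and 3.78 kb in replicate 3. Its percentile was 73.5 in replicate 1, 75.6 in replicate 2 and 57.7 in replicate 3 (68.9 ± 9.77, SD), at 3.36, 3.33 and 2.08 times the lowest total of each list. It was above the middle of the list in all 3 replicates. Its highest pileup lay 3.91, 3.62 and 1.92 kb before the first start, and 66.3% of the merged region was common to the 3 peaks. Ranked by highest pileup instead of total, the mean percentile of the strongest Pdgfra peak was 53.1.

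The intronic peak of Pdgfra was weaker and less stable. It stood at percentile 60.7 in replicate 1, 39.1 in replicate 2 and 13.0 in replicate 3 (37.6 ± 23.9, SD). The peaks of the 3 replicates had only 101 bp in common, or 1.56% of their merged region. In each replicate the upstream peak had the larger total, by 1.39, 2.14 and 1.83 times.

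Between the peaks of Pdgfra a stretch without a peak held all 4 start sites. It was 6.04 kb long in replicate 1, 7.73 kb in replicate 2 and 5.70 kb in replicate 3. The upstream peak ended 0.776, 0.064 and 1.26 kb before the first start, so in replicate 2 it nearly reached it. Pdgfra was thus the member with a mark on both sides of its starts and over none of them, in 3 of 3 replicates.

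The Pdgfra stretch between the highest pileups of replicates 1 and 2, and the RefSeq promoter at its first start, are printed to show DNA inside the upstream peak and at the edge of the unmarked stretch. The former is chr5:75148383-75148676 and the latter chr5:75152001-75152300, both on the plus strand of GRCm38. The former, with 56.1% G or C, lay under the peak over its whole length in each replicate. The promoter, with 51.0% G or C, lay under it over 0%, 76.0% and 0% of its length in replicates 1, 2 and 3. Capitals mark 1 E-box match in each.
Pdgfra upstream: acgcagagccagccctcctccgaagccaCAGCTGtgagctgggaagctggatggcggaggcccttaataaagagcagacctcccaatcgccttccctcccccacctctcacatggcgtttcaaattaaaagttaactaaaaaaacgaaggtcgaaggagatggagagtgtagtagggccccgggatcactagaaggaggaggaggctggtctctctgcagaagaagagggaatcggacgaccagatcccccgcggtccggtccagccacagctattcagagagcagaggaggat
Pdgfra promoter: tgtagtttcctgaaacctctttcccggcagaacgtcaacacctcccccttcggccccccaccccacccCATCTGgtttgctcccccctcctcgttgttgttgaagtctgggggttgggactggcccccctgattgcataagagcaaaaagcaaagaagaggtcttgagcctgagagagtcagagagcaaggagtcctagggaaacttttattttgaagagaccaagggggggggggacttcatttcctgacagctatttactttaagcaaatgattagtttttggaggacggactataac

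Pdgfrb encodes PDGFRβ, the receptor for PDGF-B and PDGF-D. The gene (ENSMUSG00000024620.11) spans 39.9 kb on the plus strand of chr18:61045150-61085061 with 2 start sites 0.05 kb apart, and held 1 peak in each replicate. These blocks were chr18:61039185-61061067 in replicate 1, chr18:61039153-61061356 in replicate 2 and chr18:61039586-61059852 in replicate 3. Each began upstream of the gene, covered both start sites and ended in an intron.

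The Pdgfrb block was 21.9, 22.2 and 20.3 kb long, and 91.3% of the merged region was common to the 3 replicates. Blocks of 20 kb and longer made up 0.328%, 0.578% and 0.229% of the peaks of replicates 1, 2 and 3. By length it ranked 41 in replicate 1, 57 in replicate 2 and 31 in replicate 3. It extended 5.97, 6.0 and 5.56 kb upstream of the first start and 15.9, 16.2 and 14.7 kb into the gene, so its edges moved by less than 2 kb between pads.

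Its total signal was 669261 in replicate 1, 926153 in replicate 2 and 458881 in replicate 3, which is 46.9, 38.2 and 23.7 times the lowest total of each list. By total it ranked 34 of 16788 peaks, 28 of 12969 and 29 of 13998, or percentile 99.8 in every replicate. Length adds to a summed signal, but the Pdgfrb block was also tall. Its highest pileup was 155, 200 and 134, at percentile 98.0, 98.9 and 98.8, and its signal per base at percentile 98.7, 99.1 and 97.0. The base of highest pileup was not the same in all pads, lying 10.4 kb after the start in replicates 1 and 3 and 2.88 kb before it in replicate 2.

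The highest percentile was lower for Pdgfra than for Pdgfrb in 3 of 3 replicates, at 68.9 against 99.8 on average, a difference of -30.9 ± 9.77 percentile points (SD, n = 3) with a range of -42.1 to -24.2. An exact two-sided permutation test by sign changes gave p = 0.25, the smallest value that 3 pairs allow, so the design cannot pass a threshold of 0.05.

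**Figure D2:**
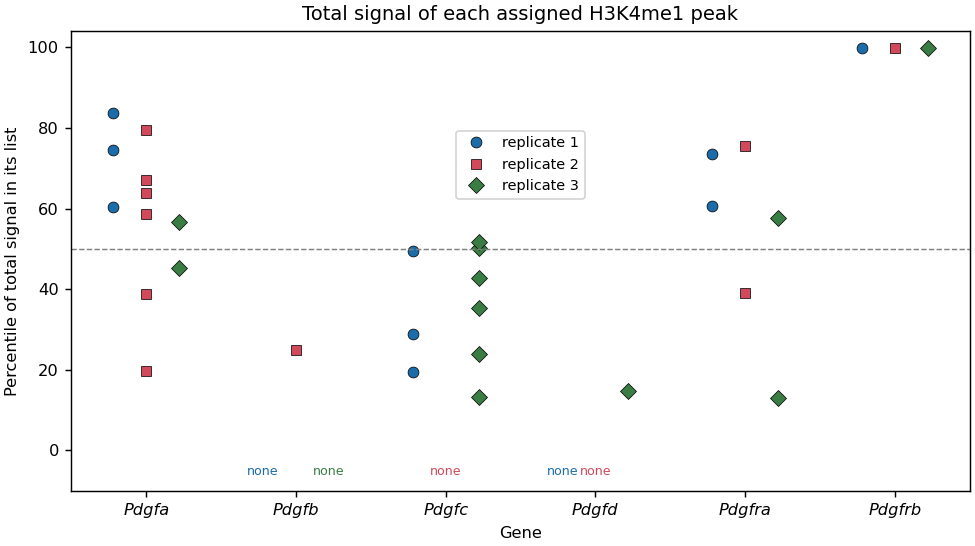
Percentile of total signal within the list of each replicate (y axis, 0 to 100) for every peak of each PDGF gene (x axis), with 1 point per peak and colour for the replicate. The points of Pdgfrb are at 99.8 in all 3 replicates, and the highest point of any other member is at 83.7, for Pdgfa in replicate 1.

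**Figure D3:**
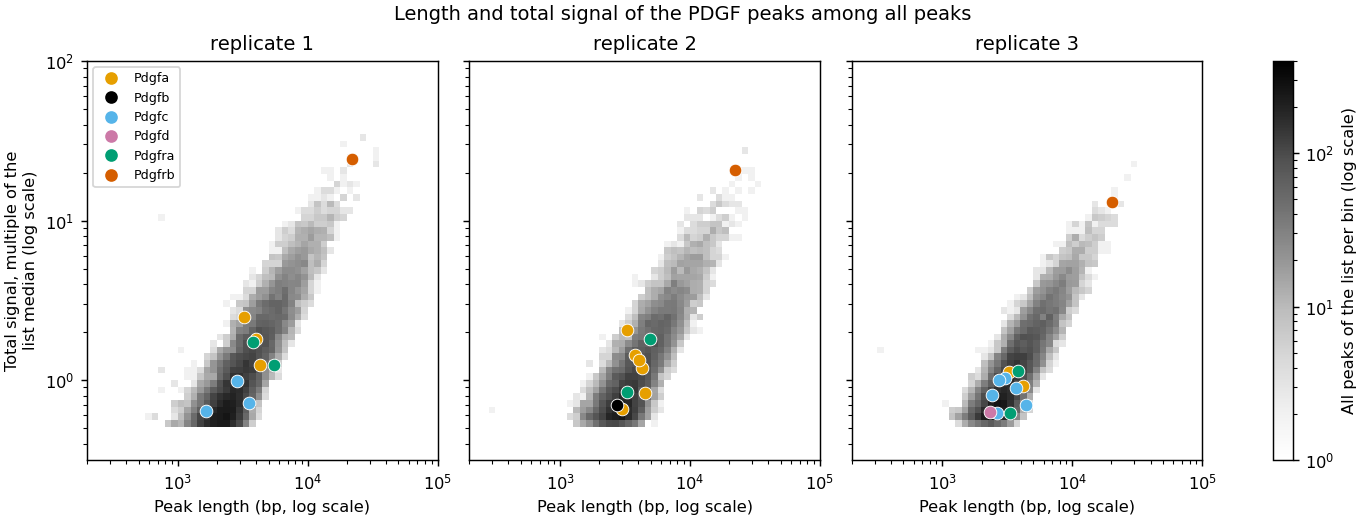
Length in bp (x axis, log scale) against total signal as a multiple of the list median (y axis, log scale). All peaks of each replicate are shown, with the peaks of the 6 genes drawn over them. The Pdgfrb block stands at the upper right in each panel, 20.3 to 22.2 kb long, and the other members' peaks lie within 1.65 to 5.5 kb.

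The share of gene body and flanks under peaks was taken as a further measure that sums over a gene's peaks. For Pdgfrb it was 41.9%, 42.5% and 39.5% (41.3 ± 1.60, SD), at rank 437, 478 and 254 of 21755 genes. For Pdgfra it was 16.6%, 14.6% and 12.6% (14.6 ± 1.97), at rank 1939, 2263 and 1669. The mean over all genes was 4.05%, 4.15% and 2.70%, and the median was 0%. The receptors' values did not overlap, and the spread of each between pads was smaller than the distance between them. Without the flanks the mean of Pdgfra was 8.77%, since its upstream peak lies in them, and with flanks of 20 kb the mean of Pdgfrb was 26.8%.

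**Figure D4:**
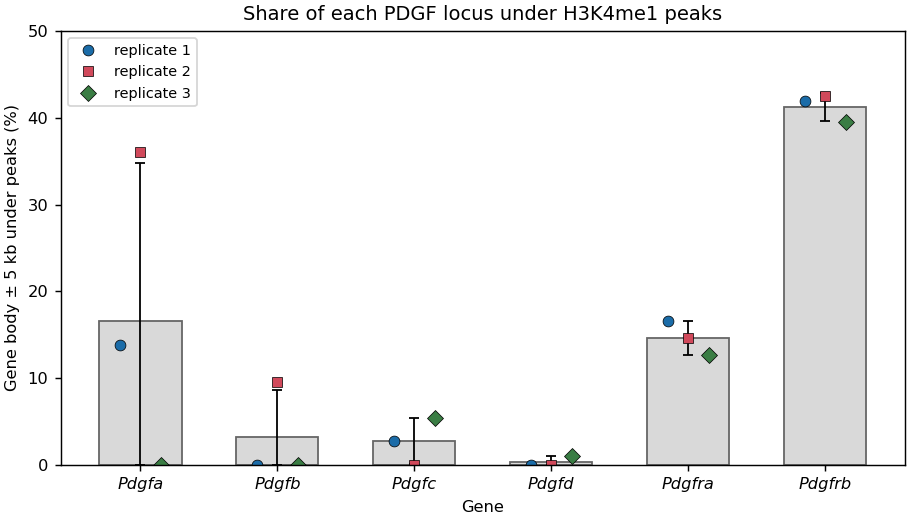
Percent of gene body and 5 kb flanks under H3K4me1 peaks (y axis) for the 6 PDGF genes (x axis). There is 1 point per replicate, a bar up to the mean, and error bars of 1 SD cut at 0. Pdgfrb lies between 39.5% and 42.5% and Pdgfra between 12.6% and 16.6%, whereas each ligand gene has at least 1 replicate at 0%.

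The block did not reach the bodies of the genes around Pdgfrb. Csf1r, the receptor gene for the macrophage growth factor CSF-1 and a relative of Pdgfrb, begins 15.5 kb downstream and had no peak in any replicate, and neither had Slc6a7, a proline transporter gene, nor Hmgxb3. Cdx1, an intestinal homeobox gene 8.95 kb upstream, was counted as having 1 peak in each replicate, with 7.37%, 7.49% and 5.90% of its body and flanks covered, but the peak was the Pdgfrb block reaching into its 5 kb flank. Camk2a, a kinase gene known from neurons and 57.0 kb upstream, had 4, 5 and 1 peaks.

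Pericyte and mural markers were examined beside Pdgfrb, since the gene is often used as one. Of 8 such markers 4, 4 and 3 had a peak in replicates 1, 2 and 3. Cspg4, with 26.4%, 39.3% and 11.9% of its body and flanks covered, and Anpep had one in every replicate. Rgs5, Kcnj8 and Vtn had none in any replicate. Of 8 endothelial markers 3, 3 and 3 had one, and of 8 markers of surface epithelium 5, 5 and 3. These shares run from 37.5% to 62.5%, where those of all genes were 24.9%, 22.6% and 19.6%. The part of these cells in the signal at Pdgfrb was not tested.

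The protein-coding genes with the most similar pattern of covered share were found from the root mean square difference, over the 3 replicates, of each gene's percentile among all genes. For Pdgfrb they were Ext2, an enzyme of heparan sulfate synthesis, at 0.0781 percentile points, Tead1, a transcription factor of the Hippo pathway, at 0.154, and Mfrp at 0.156. For Pdgfra they were Agpat4, a lipid acyltransferase, at 0.162, Sapcd2 at 0.35 and Mylk, a myosin light chain kinase, at 0.372.

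The merged peaks of the 3 replicates formed 17 regions at the 6 genes, of which 5 were listed in all 3 replicates, 4 in 2 and 8 in 1. Over all genes 46.3% of 19251 regions were listed in all 3. The 5 recurrent regions were 2 of Pdgfa, 2 of Pdgfra and 1 of Pdgfrb. When replicate 2 was left out, 8 regions were shared by the remaining pair, against 5 and 6 without replicates 1 and 3. By highest pileup, 14 of the 31 peaks had their summit in an intron, 11 upstream and 6 downstream of the gene.

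The median percentile of the members' peaks was 60.7, 61.4 and 44 (55.3 ± 9.84, SD, n = 3), and their median length 3778, 3897 and 3293 bp, against 2981, 3682 and 3352 bp over each list. In replicate 3 the family's peaks thus lay below the middle of the list by both measures, and in replicates 1 and 2 above it.

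The regions that differed between replicates 2 and 3 also differed in base composition. The 5 regions listed in replicate 2 and not 3 belonged to Pdgfa and Pdgfb, and had 52.7% to 63.6% G or C. The 7 listed in replicate 3 and not 2 belonged to Pdgfc and Pdgfd, and had 36.2% to 43.3%, while the 5 listed in all 3 had 48.1% to 54.0%. The same split held over all genes, with a median of 52.2% in 3307 regions of replicate 2 and not 3, and 42.4% in 4075 of replicate 3 and not 2. Over their body and flanks Pdgfa and Pdgfb had 54.0% and 54.1% G or C, Pdgfc and Pdgfd 38.3% and 38.8%, and Pdgfra and Pdgfrb 47.1% and 51.5%. The part of base composition in which ligand genes were listed in which pad was not tested.

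**Figure D5:**
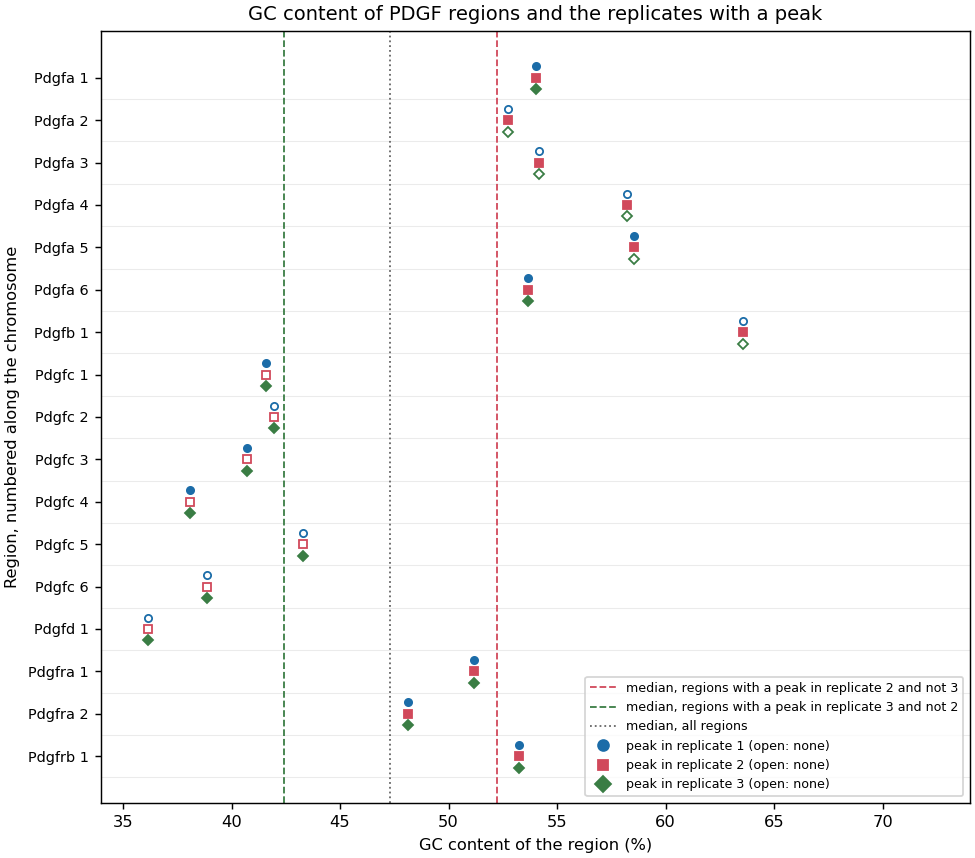
Percent of G or C bases (x axis) in each of the 17 regions of the 6 PDGF genes (y axis), with filled marks where a replicate had a peak and open marks where it had none. The regions of Pdgfa and Pdgfb that replicate 3 lacks are at 52.7% and higher, and those of Pdgfc and Pdgfd that replicate 2 lacks are at 43.3% and lower.

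Motifs were searched on both strands in windows of 300 bp at each of the 17 regions, with 19246 windows of all genes as background. A window was centred on the summit of the region's peak with the highest percentile of total signal. For the Pdgfrb block this was the summit of replicate 1, with a pileup of 155, and not that of replicate 2, with 200. GGAATG, the motif of TEAD factors, was found in 6 windows (35.3%), against 18.3% of all windows and 14.7% of 32851 RefSeq promoters. These were 4 regions of Pdgfc, the intronic region of Pdgfra and the Pdgfrb block. AAGTGAAA, the motif of PRDM1, was found in 2 (11.8%), the first downstream region of Pdgfc and the intronic region of Pdgfra, against 1.53% of all windows and 1.60% of promoters. That Pdgfc region was listed in replicate 3 alone, at percentile 13.2. The Pdgfra window, set at the summit of replicate 1, lay outside the peak of replicate 2.

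E-boxes were found in 7 of the 17 windows (41.2%), against 46.5% of all windows and 33.4% of promoters. GCCNNNGGC, the motif of AP-2, was found in 2 (11.8%, against 11.6% and 16.6%), and the homeodomain motif TAATTA in 1 (5.88%, against 5.45% and 5.29%). The LEF/TCF motif, searched as CTTTGAT or CTTTGAA, was found in 0 windows, against 10.02% of all windows and 8.65% of promoters. With 17 windows these shares are a description of letters only.

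The wider pathway was described by 57 genes in 6 lists. A peak in the body or flanks was present at 32, 31 and 28 of them in replicates 1, 2 and 3, that is 56.1%, 54.4% and 49.1%, where the shares over all genes were 24.9%, 22.6% and 19.6%. It was present at 24 in all 3 replicates and at 20 in none. Over all genes 15.5% had one in all 3 and 71.2% had none, and these shares stand beside each list below. The covered share of Pdgfrb is given beside them for scale, at a mean of 41.3%.

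Among 7 genes that cleave the latent ligands or act as co-receptors and binding proteins, 5, 6 and 5 had a peak and 5 had one in every replicate. The highest mean covered shares were those of Lrp1, an endocytic receptor that binds PDGFRβ, at 23.5 ± 4.1% (SD, n = 3), and of Furin, a proprotein convertase, at 22.5 ± 6.25%. Plau, the urokinase gene, had none.

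Among 19 genes of signal transduction, 9, 9 and 8 had a peak and 8 had one in every replicate. The highest mean shares were those of the Src-family kinases Src, at 43.3 ± 15.3% (SD, n = 3), and Fyn, at 31.6 ± 4.01%. No peak in any replicate was found at 10 of the 19, and at 71.2% of all genes. The 10 were Grb2, Sos1, Sos2, Ptpn11, Pik3cb, Yes1, Nck1, Crk, Crkl and Rasa1. They include the adaptors Grb2, Nck1, Crk and Crkl and the Ras exchange factors Sos1 and Sos2.

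Among 9 inhibitors, 7, 6 and 6 had a peak and 5 had one in every replicate. The Sprouty genes Spry4 and Spry2, feedback inhibitors of receptor tyrosine kinases, had the highest mean shares, at 39.6 ± 14.3% and 20.3 ± 13.8% (SD, n = 3). Cbl, a ubiquitin ligase gene, and Ptpn2, a phosphatase gene, had none.

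Among 9 immediate early genes that growth factors switch on, 4, 6 and 3 had a peak and 3 had one in every replicate. Junb, at 46.8 ± 33.3% (SD, n = 3), and Ier2, at 33.0 ± 13.0%, had the highest mean shares. That of Junb was 34.4%, 84.5% and 21.4% in replicates 1, 2 and 3. Fos, Egr1 and Myc had no peak in any replicate.

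Related receptors of the same kinase class and its VEGF relatives had a peak at 3, 0 and 1 of 6 genes. None of the 6 had one in every replicate, as 15.5% of all genes did, and Csf1r, Flt3 and Flt4 had none at all. Among 7 related ligands, 4, 4 and 5 had a peak and 3 had one in every replicate. Pgf, the placental growth factor gene, at 37.4 ± 13.4% (SD, n = 3), and Vegfa, at 29.3 ± 1.36%, had the highest mean shares, and Vegfd had no peak.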

How the data were processed

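Peaks were called by the authors in each H3K4me1 library, with reads aligned to mm10. The submitters' processing notes name Bowtie2 2.3, SAMtools 0.1.19, bedtools and SEACR 1.3. SEACR was run without the IgG libraries, in stringent mode, keeping the top 1% of signal blocks. The deposited peak lists hold the total signal and the highest signal of each block as read pileup in whole numbers, not scaled to depth, so only ranks within a list were compared. Sequencing depth is not given in the lists.

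The members and all lists were chosen with earlier results of these data known. Start sites came from the basic set of GENCODE M21, sequences from GRCm38.p6 and RefSeq promoters from GRCm38.p6 (4 of 6 members matched, with 5 promoters). Peaks of replicates were merged into a region if they shared 1 bp. Genes were named if they were members, neighbours within 100 kb or the 3 most like a receptor. In the pathway lists, genes never covered were named. So were the 2 with the highest mean covered share among genes with a peak in every replicate. Pericyte and mural markers were named if they had a peak in every replicate or in none. Gene lists are 6 pathway and 6 marker lists, each given once. Scripts ran in Python 3.11.15 with numpy 2.4.6 and pandas 2.3.3 and were checked on simulated data. Alternatives changed the flank, reach, ranking measure, list cut, joining of peaks and replicates. The sequence and values of 1 intronic region of Pdgfc are not reported here.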

Additional observations from a re-analysis of the deposited data

How the results depend on the processing

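Of 153 values recomputed for 19 results, 129 were counted as unchanged and 24 were not. Only the difference between the receptors could change sign, and it did not. Unchanged meant within 1 SD between replicates or, for counts, within 1.5 times. The SD was larger than the mean for the covered shares of Pdgfa, Pdgfb and Pdgfd, so large moves there still counted as unchanged. That of Pdgfb went from 3.17% to 0% with the stronger 50% of each list and was counted so. For the difference between the receptors unchanged meant the same sign only. Ranked by highest pileup, that difference was -45.5 against -30.9 percentile points, a move larger than its SD of 9.77 but counted as unchanged. No paired analysis was possible because no groups were compared, as the IgG libraries were not analysed here. The difference between the receptors was taken within each library. Results of 1 library have no spread, so any change counts as a move for them. With no flank the mean covered share was 8.77% for Pdgfra and 39.1% for Pdgfrb, and with 20 kb flanks 9.53% and 26.8%. With the stronger 50% of each list Pdgfra was at 10.7%, the family at 3 members with a peak, 5.67 peaks and 3 recurrent regions, and the median percentile at 67.3, and with the strongest 10000 peaks Pdgfra was at 12.6% and 3.33 members had a peak. Ranked by highest pileup, the highest percentile was 24.7 for Pdgfb, 77.2 for Pdgfc, 29.9 for Pdgfd, 53.1 for Pdgfra and 98.6 for Pdgfrb, the median over the family's peaks was 44.3, and 0.667 members had their summit near a start. Ranked by signal per base it was 34.1 for Pdgfb, 62.4 for Pdgfc, 33.2 for Pdgfd and 98.3 for Pdgfrb. With nearby peaks joined it was 24.4 for Pdgfb, 14.3 for Pdgfd and 99.7 for Pdgfrb. Leaving out each replicate gave 5 to 8 recurrent regions. The causes of these moves were not tested. Pdgfb had no percentile with the stronger 50% or without replicate 2, and Pdgfd none with the strongest 10000, the stronger 50% or without replicate 3. Absence from a list means a signal under that list's limit, which differed between replicates, and the lists give no sequencing depth.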
